A study of Mus musculus with 6 samples.

Results

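The mRNAs of the cytosolic ribosomal proteins, with the muscle paralog Rpl3l, were examined in hearts of mice that lack Cfp1 in cardiomyocytes. Members were the genes whose symbol is Rpl or Rps followed by the number of a ribosomal protein and, in some, a paralog letter, together with Rpsa and the Rplp genes, and rows named as pseudogenes were left out. This rule took 86 of the 26881 genes in the table. They were 31 proteins of the small (40S) subunit, 43 of the large (60S) subunit, the 3 P-stalk proteins, 6 paralogs of known subunits (Rpl3l, Rpl22l1, Rpl39l, Rpl7l1, Rps27l and Rps4l) and 3 further copies (Rpl6l, Rps3a2 and Rps3a3).

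Total RNA of 3 WT and 3 Cfp1-cKO heart samples was sequenced when the mice were 2 weeks old. The Cfp1-cKO mice were Myh6-Cre: Cfp1 flox/flox animals on C57BL/6, and WT mice were the controls. The Myh6 promoter drives Cre in cardiomyocytes, so the other cells of these whole hearts kept Cfp1. The sources used here do not state the Cre or flox alleles of the WT mice, their sex, or how many hearts made up a sample, so the p-values reflect no more than how far these samples lie apart, which may be technical. Between 16672652 and 22700811 fragments lay behind each library, as worked back from the values, and levels were given as FPKM, fragments per kilobase of gene scaled to the total of the library. Values of 3 libraries are given in the order of replicates 1 to 3.

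A ribosome joins ribosomal RNA to 1 copy of nearly every ribosomal protein, so cells make these proteins in matched amounts. Their mRNAs are among the most abundant in most cells, and many begin with a run of pyrimidines, the terminal oligopyrimidine or TOP motif, through which growth signals by way of mTOR and Larp1 set their translation. Rpl3 reaches toward the peptidyl transferase centre of the large subunit, and striated muscle also makes Rpl3l, which can take its place.

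Rpl3 (ENSMUSG00000060036, chr15:80077794-80091868 of GRCm38) and Rpl3l (ENSMUSG00000002500, chr17:24727820-24736143) have coding sequences of 1212 and 1224 bases. Over 1209 aligned bases they were 74.4% identical, their longest identical run was 22 bases, and no run of 50 bases was shared between their transcripts. The first 90 coding bases of each are shown, in the annotation of GENCODE release M21, because they show how far the paralogs can be told apart by reads. Capitals mark the 21 of these positions at which the paralogs differ.
Rpl3: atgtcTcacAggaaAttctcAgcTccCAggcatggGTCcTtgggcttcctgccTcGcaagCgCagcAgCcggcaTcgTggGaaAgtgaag
Rpl3l: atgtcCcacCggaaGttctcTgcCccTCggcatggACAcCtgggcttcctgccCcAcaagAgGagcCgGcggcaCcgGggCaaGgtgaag
Differences were spread along the whole stretch. Of the runs of 50 bases in Rpl3 transcripts, 35.0% also occurred in another gene's transcripts, and of those in Rpl3l none did, nor did any Rpl3l exon overlap an exon of another gene.

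RefSeq promoters of build GRCm38.p6 were at hand for 61 members other than Rpl3l. They were compared with 27025 promoters of all genes because a pyrimidine run at the start site is the shared feature for which this family is known. In the window from 30 bases before to 15 bases from the annotated start, 29 of the 61 members (47.5%) held an unbroken run of at least 8 C or T on the coding strand, against 18.5% of all promoters and 17.7% of promoters of genes at 1 FPKM or more. The windows of 5 members are shown 5′ to 3′ on the coding strand, with the longest run of C and T in capitals.
Rpl35 (chr2:39005117-39005161, minus strand): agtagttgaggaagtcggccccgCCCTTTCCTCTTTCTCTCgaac
Rplp2 (chr7:141447621-141447665, plus strand): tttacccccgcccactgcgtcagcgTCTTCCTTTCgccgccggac
Rps24 (chr14:24490648-24490692, plus strand): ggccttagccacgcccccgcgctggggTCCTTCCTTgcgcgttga
Rpl22 (chr4:152325696-152325740, plus strand): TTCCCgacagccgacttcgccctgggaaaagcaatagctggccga
Rpl3l (chr17:24727796-24727840, plus strand): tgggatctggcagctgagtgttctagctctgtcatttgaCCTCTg
Runs of 18, 10 and 9 bases stood at the starts of Rpl35, Rplp2 and Rps24, and the longest run was 5 bases in Rpl22 and in Rpl3l. The motif CCGGAAG, searched on both strands of the 300-base promoter, was found in 41.0% of the 61 members, against 9.12% of all promoters and 18.8% of those of genes at 1 FPKM or more. The E-box motif CANNTG, searched likewise, was found in 47.5% of the 61 members, against 72.2% of all promoters and 62.5% of those of genes at 1 FPKM or more. Members held a median of 21 CpG in the 300 bases, which was also the median for promoters of genes at 1 FPKM or more, and all promoters had a median of 7. The Rpl3l promoter held 2 CpG, below the lowest of the 61 members, 8. These matches describe the letters of the windows and not the binding of a factor.

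Cxxc1, which encodes Cfp1, was at 9.66, 12.9 and 10.03 FPKM in the 3 WT libraries, compared with 8.02, 9.94 and 8.74 FPKM in the 3 of Cfp1-cKO. The genotypes overlapped, and the gene was not called different (limma, adjusted p = 0.249). A level over the full gene and over every cell type of the heart does not measure the deletion. Markers of other cells moved with genotype and were in these same libraries. Over 15 cardiomyocyte markers the summed level was between 22846 and 29043 FPKM across WT samples and between 15129 and 19483 FPKM across Cfp1-cKO samples. Of the 15, 6 were called lower and none higher, beside 1.68% and 21.1% of all tested genes. Over 12 lung epithelial markers, none of them at 0 in every library, the sum was between 79.3 and 105 FPKM across WT samples. Across Cfp1-cKO samples it was between 3279 and 4992 FPKM. Of the 11 tested, 10 were called higher, beside 21.1% of all tested genes, and 1 lay below 0. Their median log2 fold change was 6.05 (range -0.18 to 10.9). Sftpc, with the largest rise, was at 0, 0.33 and 0 FPKM in the WT libraries. In those of Cfp1-cKO it was at 1202, 2163.5 and 3232 FPKM. Summed levels of 8 macrophage markers were between 93.6 and 104 FPKM across WT samples and between 495 and 837 FPKM across Cfp1-cKO samples. The part of these cells in the levels of the ribosomal proteins was not tested, and in bulk samples fewer cells of a type and less RNA per cell cannot be told apart.

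Ribosomal protein mRNAs were abundant in both genotypes and varied among themselves over a wide range. Of the 86 members, 81 reached a mean of 1 FPKM over the 6 libraries and were tested, and their median level was 108 FPKM, against 4.84 FPKM over the 11017 genes tested. The 42 members above 100 FPKM included 18 of the 31 small subunit and 22 of the 43 large subunit proteins. Rplp1, an acidic stalk protein, had the highest mean at 628 FPKM, followed by Rps24 at 526 FPKM and Rps3a1 at 452 FPKM, both of the small subunit. At the lower end of the tested members stood Rpl13a at 1.11 FPKM, Rpl22l1 at 3.07 FPKM and Rps4l at 14.4 FPKM. Rpl13a and Rpl24 are core proteins of the large subunit, and their levels were far below those of the other core proteins. Rpl24, at 0.32 FPKM, was not tested, and 47.0% of its exon bases overlapped exons of other genes on either strand, against 35.4% for Rpl13a, so both levels are uncertain. The other 4 members not tested were Rpl6l, Rps3a2, Rpl39l and Rps3a3, with means of 0.70, 0.50, 0.17 and 0.04 FPKM. Of the 86 members, 83 shared runs of 50 bases with transcripts of other genes, and the median member shared 23.9% of its runs. These other genes include those whose exons overlap the member, which was so for 38 members. Fragments from shared runs may have been split between genes or left uncounted.

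The summed level of the members did not separate the genotypes. With Rpl3l left out, it was 10678, 12979 and 8266 FPKM in the WT libraries against 10626, 11293 and 8433 FPKM in the Cfp1-cKO libraries. WT replicate 2 was the highest, and the third replicates of both genotypes were the lowest, so the WT range enclosed every Cfp1-cKO value. The means were 10641 ± 2357 and 10117 ± 1497 FPKM (SD, n = 3 each). The log2 difference of -0.06 was smaller than the spread between replicates (two-sided exact permutation test, p = 0.90, where 0.10 is the smallest p that 3 libraries against 3 allow). It turned positive without WT replicate 2 (0.10) and without Cfp1-cKO replicate 3 (0.07). After median-of-ratios scaling, which sets the typical gene equal between libraries, the difference was -0.51 (p = 0.30, exact permutation test) and the genotypes still overlapped. The members took 1.71% to 2.56% of all FPKM in WT and 1.92% to 2.44% in Cfp1-cKO libraries.

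Most of the variation of these mRNAs ran between libraries of 1 genotype, and it ran in the same direction in nearly all members. WT replicate 2 held the highest value of 64 of the 81 tested members, and WT replicate 3 held the lowest value of 44 and Cfp1-cKO replicate 3 that of 28. Between WT replicates 2 and 3, 77 of 81 members were higher in replicate 2, by a median of 0.66 on the log2(FPKM + 1) scale, whereas the median over all tested genes was -0.11. Between Cfp1-cKO replicates 2 and 3, 77 of 81 members were again higher in replicate 2, by a median of 0.41, with a median of -0.01 over all genes. No cause of these shifts was tested. Erythroid markers summed to 59.8, 1007 and 102 FPKM in the 3 WT libraries, compared with 1194, 1892 and 233 FPKM in the 3 of Cfp1-cKO, so they were also highest in replicate 2 of both genotypes, and their part was not tested.

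**Figure D1:**
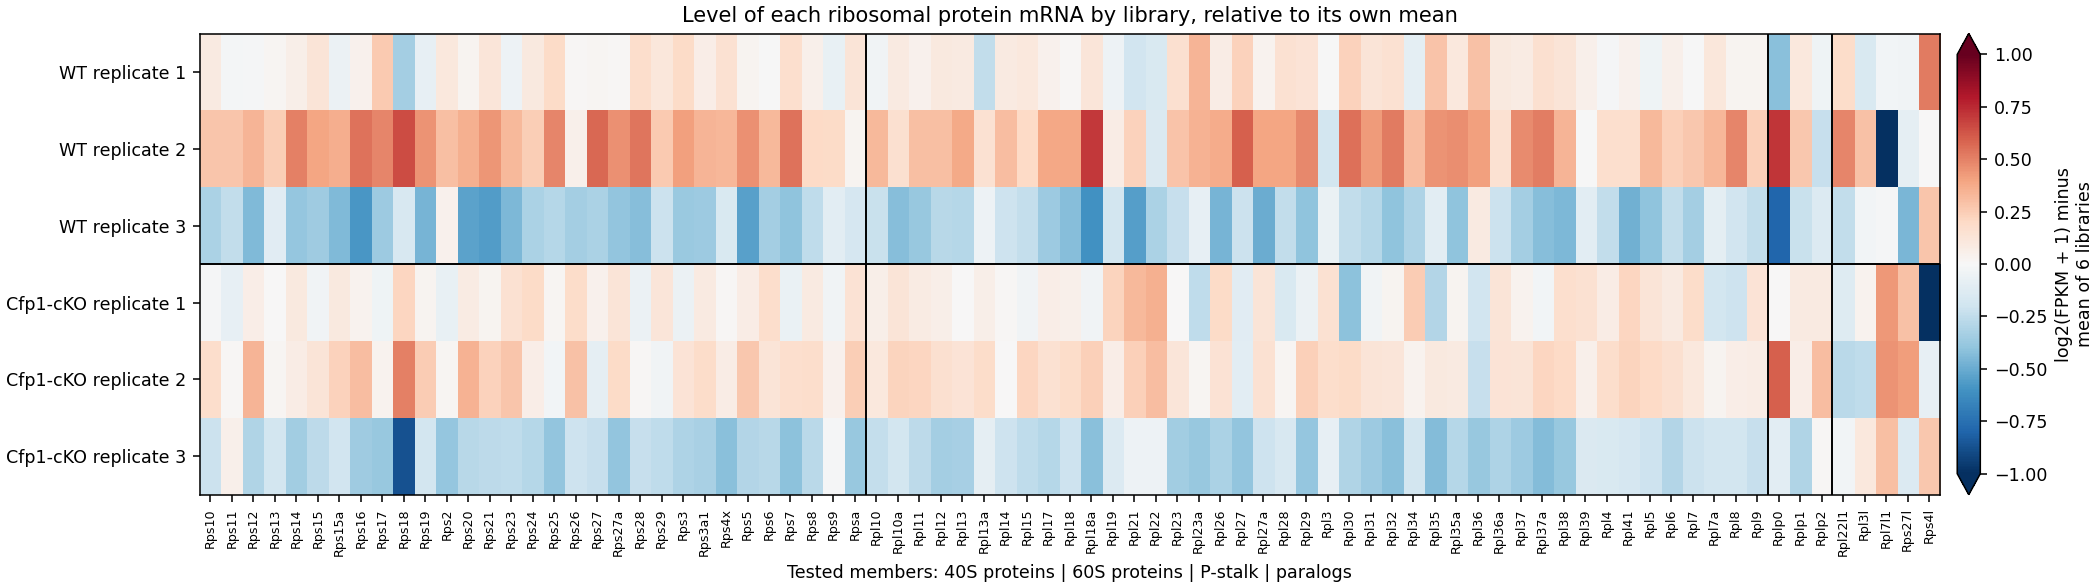
Difference of log2(FPKM + 1) from the member's own mean over 6 libraries (colour, red above and blue below, saturating at 1 either way) for each of the 81 tested members (columns, by subunit) in each library (rows). WT replicate 2 is red in most columns, and the third replicates of WT and Cfp1-cKO hearts are blue in most, in both subunits alike.

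When each library was set relative to its own ribosomal protein total, the members' median SD within genotypes went from 0.29 to 0.11 on the log2 scale, and the SD of 70 of 81 members became smaller. Over all tested genes the median SD went from 0.22 to 0.34, and 15.8% became smaller. The total is the members' own sum, so part of this narrowing is built in. Both subunits moved in step, since the ratio of the summed large subunit to the summed small subunit proteins was 1.13, 1.12 and 1.16 in WT replicates 1 to 3 and 1.10, 1.11 and 1.16 in Cfp1-cKO replicates 1 to 3. Those ratios overlapped between genotypes. A few members kept a wide spread relative to the total, with SDs within genotypes of 0.65 for Rps4l, 0.65 for Rpl7l1 and 0.45 for Rps18. Rps18, at the head of the small subunit, was at 36.1, 72.8 and 41.1 FPKM in the WT libraries against 53.7, 65.7 and 24.7 FPKM in the Cfp1-cKO libraries. Before that rescaling its SD of 0.63 was the largest of all tested members.

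Between genotypes, the levels of the family differed little in FPKM, while the median of all tested genes lay higher in Cfp1-cKO hearts. Of the 81 tested members, 1 was called lower, Rpl36, and none was called higher (limma over all tested genes, where a call needs an adjusted p under 0.05 and a log2 fold change of more than 0.5 either way). By the same rule 2510 of 11017 genes were called (22.8%), of which 2325 were higher (21.1%) and 185 lower (1.68%). An unadjusted p below 0.05 was reached by 3 of the 81 members, beside 4826 of the 11017 tested genes. The count of called members was 0 without any 1 library other than WT replicate 3, and without that library it was 3, namely Rpl36, Rpl27 and Rpl7l1. Over all tested genes 25.3% were called without WT replicate 3, and 5.34% to 16.8% without any other 1 library. The members' median log2 fold change was -0.03, with a range from -0.54 to 0.79, beside a median of 0.35 over all tested genes. Of the members, 65 lay within 0.25 of 0, against 30.3% of all tested genes. The 95% confidence interval of 78 members held 0 and that of 78 lay within 1 log2 unit of 0, that is, within a 2-fold change either way.

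Read against the typical gene, the members lay low. Of the 81, 78 fell below the median of all tested genes. After median-of-ratios scaling, which moved that median from 0.35 to 0.00, the members' median was -0.48 (range -0.97 to 0.37), and 80 of 81 lay below 0. Of them, 1 member, again Rpl36, was called lower and none higher, beside 6.99% of all tested genes called (3.74% higher and 3.25% lower). An unadjusted p below 0.05 was reached by 21 of the 81 members, beside 2720 of the 11017 tested genes. Mitochondrially encoded genes took 59.3% to 59.8% of all FPKM in WT and 52.9% to 55.2% in Cfp1-cKO libraries. With mitochondrial and haemoglobin genes left out and the rest rescaled, the members' median was -0.09 and that of all genes was 0.37.

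**Figure D2:**
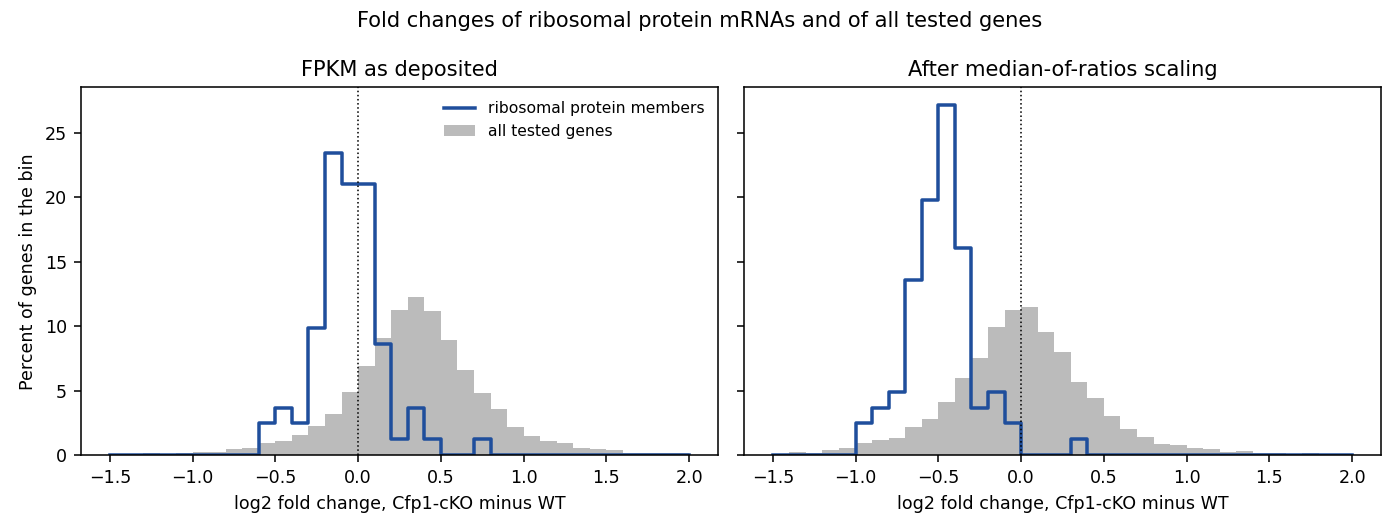
Percent of genes (vertical) by log2 fold change, Cfp1-cKO minus WT, in bins of 0.1 (horizontal), for all 11017 tested genes (grey bars) and the 81 tested members (blue outline), in FPKM as deposited (left) and after median-of-ratios scaling (right). The members centre at -0.03 on the left and -0.48 on the right, below the centre of all genes (0.35 and 0.00) in both. Genes beyond the axis, 134 and 159, are not drawn.

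Rpl3l, the paralog of striated muscle, was at 23.8, 32.6 and 26.0 FPKM in the 3 WT libraries, compared with 27.1, 22.0 and 28.6 FPKM in the 3 of Cfp1-cKO. The highest value was that of WT replicate 2 and the lowest that of Cfp1-cKO replicate 2, and the genotypes overlapped. Its log2 fold change was -0.08 (95% interval -0.48 to 0.32, limma adjusted p = 0.750), and its sign turned without either of these libraries (0.05 and 0.03). Rpl3, the common form, was at 108, 94.9 and 103 FPKM in the WT libraries against 120, 122 and 102 FPKM in the Cfp1-cKO libraries. Its values overlapped as well, with a log2 fold change of 0.17 (95% interval -0.17 to 0.50, limma adjusted p = 0.390), and after median-of-ratios scaling of -0.27. Rpl3l made up 18.1%, 25.6% and 20.1% of the pair's FPKM in the WT libraries against 18.4%, 15.3% and 21.9% in the Cfp1-cKO libraries. The mean shares were 21.3% ± 3.90 and 18.5% ± 3.33 (SD, n = 3 each). No difference in the ratio of Rpl3l to Rpl3 was found beyond the spread between replicates (log2 difference -0.25, two-sided exact permutation test, p = 0.50, adjusted p = 0.60 over 6 pairs of paralogs). Without WT replicate 2 the difference was -0.07.

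Skeletal muscle also makes Rpl3l. Of 8 skeletal muscle markers 6 were in the table, and their summed level was between 2.64 and 2.91 FPKM across WT samples and between 4.79 and 6.51 FPKM across Cfp1-cKO samples. The 1 that was tested, Tnni2, a troponin I of fast skeletal muscle, was called higher in limma (log2 fold change 0.60), and its call was lost after median-of-ratios scaling (0.29). The part of skeletal muscle in the level of Rpl3l was not tested. Of the 15 cardiomyocyte markers, 9 overlapped between genotypes as Rpl3l did, and 6 lay below all WT values. Over all tested genes 5545 of 11017 overlapped and 3.23% lay below all WT values. The median log2 fold change of the 15 markers was -0.39 (range -2.05 to 0.33), with 12 below 0 and 3 above.

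**Figure D3:**
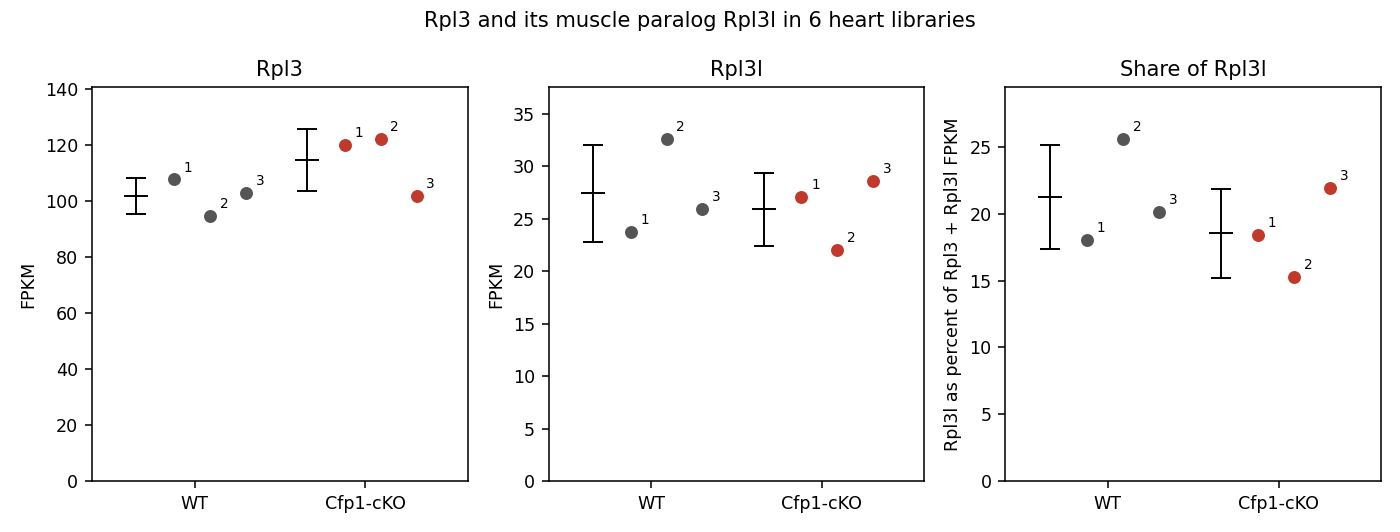
FPKM of Rpl3 (left) and Rpl3l (middle), and Rpl3l as a percent of the pair's FPKM (right), in WT (grey) and Cfp1-cKO (red) hearts. Points are libraries, numbered by replicate, and bars are means with SD (n = 3 each). The genotypes overlap in all 3 panels, with Rpl3l shares of 18.1% to 25.6% in WT and 15.3% to 21.9% in Cfp1-cKO hearts.

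Of the large subunit, 42 proteins were tested, and their median log2 fold change was -0.05. Of the 42, 1 was called lower and none higher, beside 1.68% and 21.1% of all tested genes. The called member was Rpl36 (ENSMUSG00000057863, chr17:56613395-56614243), a small protein of the large subunit. It was at 360, 391 and 313 FPKM in the WT libraries against 257, 251 and 226 FPKM in the Cfp1-cKO libraries. Every Cfp1-cKO value lay below every WT value. Mean levels were 355 ± 39.0 FPKM for WT and 245 ± 16.4 FPKM for Cfp1-cKO (SD, n = 3 each). The log2 fold change was -0.53, with a standard error of 0.15 and an adjusted p of 0.0403 from limma. The size was close to the threshold of 0.5, and relative to the ribosomal protein total it was -0.47 (adjusted p = 0.193, limma). On that scale no member was called in limma, 0 of 81, and 5.93% of all tested genes were, 5.38% higher and 0.545% lower. An unadjusted p below 0.05 was reached there by 2 members, beside 2798 of the 11017 tested genes. Of the runs of 50 bases in Rpl36, 81.1% also occurred in other genes, so its level is uncertain.

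The large subunit members with the next most negative fold changes were not called. Rpl35 was at 19.7, 22.2 and 14.8 FPKM in the 3 WT libraries, compared with 12.9, 17.2 and 11.5 FPKM in the 3 of Cfp1-cKO, a log2 fold change of -0.42 (limma adjusted p = 0.145). Rpl27 was at 139, 179 and 102 FPKM in the WT libraries against 109, 109.9 and 89.9 FPKM in the Cfp1-cKO libraries, a change of -0.41 (limma adjusted p = 0.176). Rpl23a was at 46.0, 46.3 and 34.2 FPKM in the 3 WT libraries, compared with 30.2, 36.7 and 27.7 FPKM in the 3 of Cfp1-cKO, a change of -0.40 (limma adjusted p = 0.120). All 3 overlapped between genotypes, and in each both genotypes were lowest in replicate 3. Rpl35 and Rpl23a share 84.0% and 80.8% of their runs of 50 bases with other genes. Of their exon bases 66.2% and 62.3% overlapped exons of other genes on either strand, so both levels are uncertain.

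In the other direction, Rpl22, an RNA-binding protein of the large subunit that most cells can do without, was at 40.1, 40.5 and 35.8 FPKM in the WT libraries against 57.5, 55.6 and 43.2 FPKM in the Cfp1-cKO libraries. Every Cfp1-cKO value lay above every WT value, and the gene was not called (log2 fold change 0.41, 95% interval 0.04 to 0.78, limma adjusted p = 0.0891). Rpl21 was at 63.6, 85.5 and 49.1 FPKM in the 3 WT libraries, compared with 90.9, 85.6 and 69.9 FPKM in the 3 of Cfp1-cKO, which overlapped (0.34, limma adjusted p = 0.2497). After median-of-ratios scaling both lay slightly below 0, at -0.03 and -0.10.

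Of the small subunit, all 31 proteins were tested and none was called in either direction in limma, beside 22.8% of all tested genes. An unadjusted p below 0.05 was reached by 0 of the 31, beside 4826 of the 11017 tested genes. The median log2 fold change of the 31 was -0.03 and their range was -0.30 to 0.18. The most abundant, Rps24, was at 557, 616 and 416 FPKM in the WT libraries against 595, 545 and 426 FPKM in the Cfp1-cKO libraries, a change of -0.02 (limma adjusted p = 0.955). Rps3a1 was at 467, 565 and 346 FPKM in the 3 WT libraries, compared with 475, 506 and 356 FPKM in the 3 of Cfp1-cKO, a change of -0.03 (limma adjusted p = 0.921). In both genes the lowest value of each genotype was that of replicate 3, and the genotypes overlapped. Rps2, a protein at the entry of the mRNA channel, was the 1 small subunit member whose Cfp1-cKO values all lay below the WT values, and it is named after its values were seen. It was at 218, 249.7 and 209 FPKM in the WT libraries against 192, 205 and 154 FPKM in the Cfp1-cKO libraries (-0.30, 95% interval -0.68 to 0.08, limma adjusted p = 0.185). Over all tested genes 3.23% lay below all WT values.

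The P-stalk, a protruding arm of the large subunit on which elongation factors act, is built from Rplp0, to which Rplp1 and Rplp2 bind. None of the 3 was called in limma, beside 22.8% of all tested genes, and 0 had an unadjusted p below 0.05, beside 4826 of 11017. Rplp0 was at 241, 531 and 186 FPKM in the 3 WT libraries, compared with 325, 490.3 and 299.8 FPKM in the 3 of Cfp1-cKO, so it differed more within genotypes than between them (0.33, 95% interval -0.52 to 1.18, limma adjusted p = 0.501). Rplp1 was at 669, 751 and 532 FPKM in the WT libraries against 661, 649.9 and 504 FPKM in the Cfp1-cKO libraries, which overlapped (-0.10, limma adjusted p = 0.695). Rplp2 was at 37.1, 32.5 and 34.6 FPKM in the 3 WT libraries, compared with 40.8, 47.6 and 38.5 FPKM in the 3 of Cfp1-cKO. Its Cfp1-cKO values all lay above the WT values (0.27, 95% interval -0.06 to 0.61, limma adjusted p = 0.181), and after median-of-ratios scaling its difference was -0.16 and that of Rplp0 was -0.11.

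In all, 3 tested members lay above all WT values (Rpl22, Rpl7l1 and Rplp2) and 2 below them (Rpl36 and Rps2), while 76 overlapped. Over all tested genes 46.4% lay above all WT values and 3.23% below them.

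**Figure D4:**
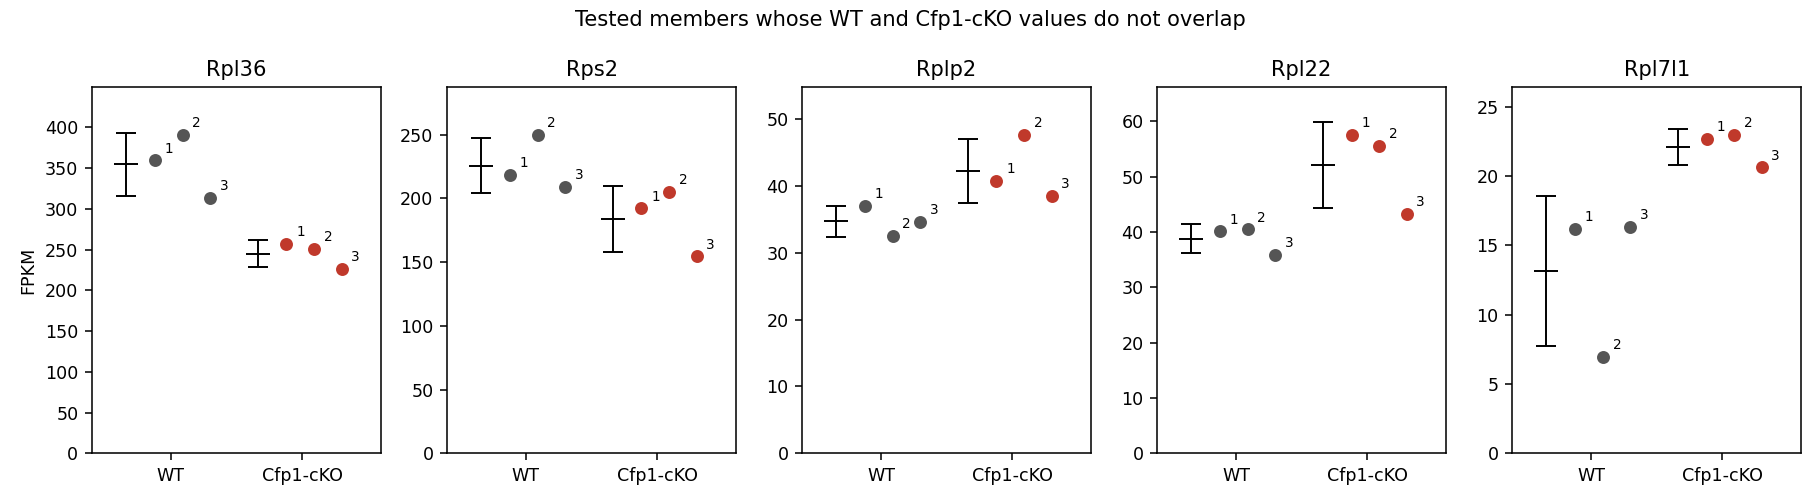
FPKM of the 5 tested members whose genotypes do not overlap, in WT (grey) and Cfp1-cKO (red) hearts, with points numbered by replicate and bars for the mean with SD (n = 3 each). In FPKM the 3 Cfp1-cKO points lie below the WT points for Rpl36 and Rps2 and above them for Rplp2, Rpl22 and Rpl7l1, and of the 5 only Rpl36 was called.

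Among the paralogs, Rpl7l1, a relative of Rpl7, differed most in FPKM and was not called. It was at 16.2, 6.92 and 16.3 FPKM in the WT libraries against 22.7, 22.9 and 20.6 FPKM in the Cfp1-cKO libraries. WT replicate 2 stood far below the other libraries, and all Cfp1-cKO values were above all WT values (0.79, 95% interval 0.13 to 1.46, limma adjusted p = 0.0754). The log2 fold change was 0.42 without WT replicate 2 and 0.37 after median-of-ratios scaling, and without WT replicate 3 the gene was called (0.98, limma adjusted p = 0.0478). Rps27l, a relative of Rps27 that is known as a p53 target, was at 51.4, 49.5 and 38.1 FPKM in the 3 WT libraries, compared with 64.7, 70.6 and 47.7 FPKM in the 3 of Cfp1-cKO, which overlapped (0.38, limma adjusted p = 0.163). Rps4l was at 20.04, 13.7 and 16.8 FPKM in the WT libraries against 6.37, 12.9 and 16.7 FPKM in the Cfp1-cKO libraries. Its low value came from Cfp1-cKO replicate 1 (-0.54, 95% interval -1.24 to 0.17, limma adjusted p = 0.204). Rpl22l1, which is known to be repressed by Rpl22, was at 3.54, 4.61 and 2.37 FPKM in the 3 WT libraries, compared with 2.66, 2.32 and 2.93 FPKM in the 3 of Cfp1-cKO (-0.28, limma adjusted p = 0.304). Rpl39l, best known from testis, was at 0.053, 0 and 0.33 FPKM in the WT libraries against 0.19, 0.29 and 0.13 FPKM in the Cfp1-cKO libraries, which is at or near the level of single fragments. Rpl10l was not in the table.

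A ratio within a library does not depend on the scaling between libraries. Of 6 pairs of paralogs with values above 0, the ratio in 2 did not overlap between genotypes, and none passed the exact permutation test, which cannot go below 0.10. Rps27l made up 29.3%, 21.3% and 28.0% of its pair with Rps27 in the WT libraries against 33.9%, 38.1% and 31.4% in the Cfp1-cKO libraries, higher in all 3 Cfp1-cKO libraries (log2 difference of the ratio 0.58, exact permutation p = 0.10, adjusted p = 0.30). Rpl22l1 made up 8.12%, 10.2% and 6.21% of its pair with Rpl22 in the WT libraries against 4.42%, 4.01% and 6.35% in the Cfp1-cKO libraries, which overlapped (-0.78, exact permutation p = 0.20, adjusted p = 0.30). Rpl7l1 made up 8.04%, 2.998% and 10.03% of its pair with Rpl7 in the WT libraries against 9.73%, 10.3% and 11.4% in the Cfp1-cKO libraries (0.80, exact permutation p = 0.20, adjusted p = 0.30). For Rps4l and Rps4x the difference was -0.36 (exact permutation p = 0.70, adjusted p = 0.70).

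The other pair without overlap was that of elongation factor 1A, which brings aminoacyl-tRNA to the ribosome and has a common form, Eef1a1, and a form of adult muscle and neurons, Eef1a2. Eef1a2 was at 112, 86.2 and 146 FPKM in the 3 WT libraries, compared with 67.5, 66.6 and 66.5 FPKM in the 3 of Cfp1-cKO. The 3 Cfp1-cKO values were nearly equal and lay below all WT values, and the gene was called lower (log2 fold change -0.74, standard error 0.20, limma adjusted p = 0.0338). The call was kept without WT replicate 2 and lost without any other 1 library (limma adjusted p = 0.0523 to 0.108). Over all tested genes 5.34% to 25.3% were called with 1 library left out, in place of 22.8%. Eef1a2 was also called lower after median-of-ratios scaling (-1.18, limma adjusted p = 0.0142). Relative to the ribosomal protein total it was not called (-0.68, limma adjusted p = 0.189). Eef1a1 was at 1225, 1163 and 1005 FPKM in the WT libraries against 921, 1109.9 and 998 FPKM in the Cfp1-cKO libraries, which overlapped (-0.16, limma adjusted p = 0.440). Eef1a2 made up 8.35%, 6.90% and 12.7% of the pair in the WT libraries against 6.83%, 5.66% and 6.25% in the Cfp1-cKO libraries (log2 difference of the ratio -0.58, exact permutation p = 0.10, adjusted p = 0.30).

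**Figure D5:**
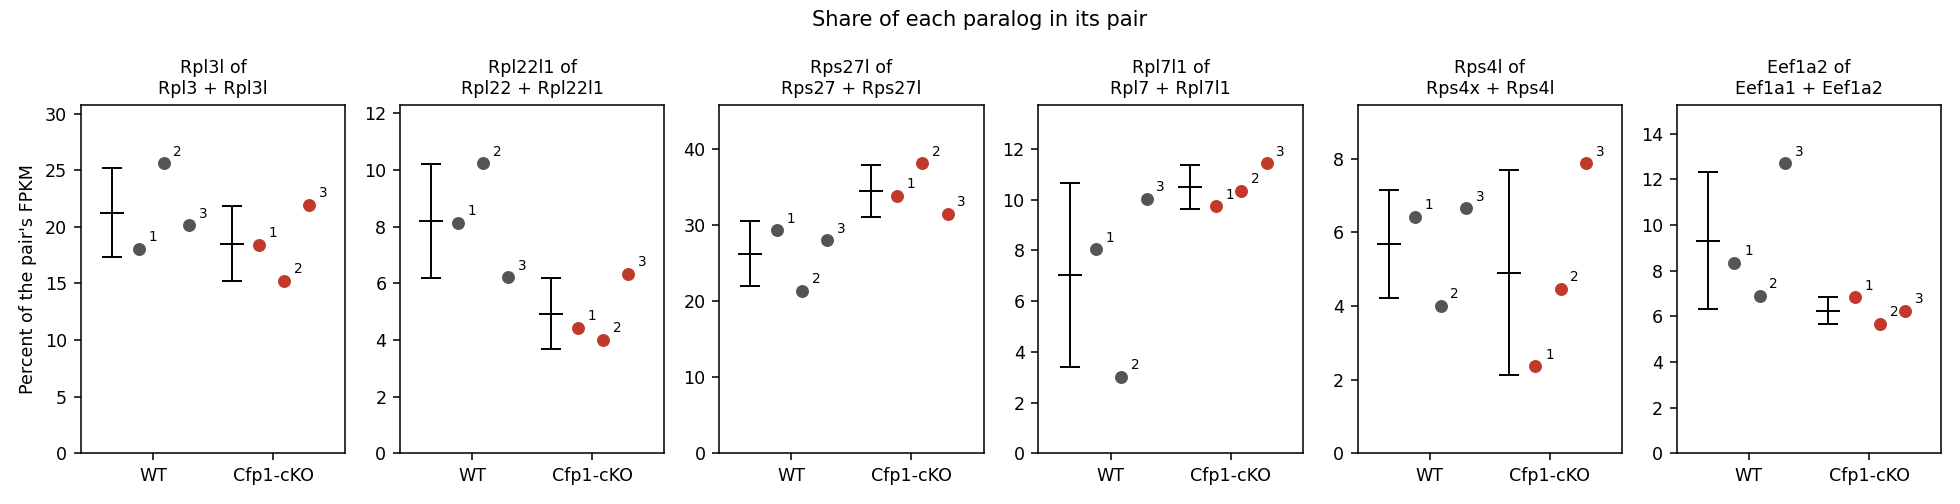
Share of each paralog in the FPKM of its pair, in percent (vertical), in WT (grey) and Cfp1-cKO (red) hearts, with points numbered by replicate and bars for the mean with SD (n = 3 each). The genotypes do not overlap for Rps27l (21.3% to 29.3% in WT, 31.4% to 38.1% in Cfp1-cKO) and Eef1a2 (6.90% to 12.7% and 5.66% to 6.83%), and overlap for the other 4 pairs.

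Genes that build, escort or regulate ribosomes were read from lists beside the members. Of 69 tested ribosome biogenesis genes 11 were called higher and none lower, beside 21.1% of all tested genes called higher. Their median log2 fold change was 0.36, beside 0.35 over all tested genes. After median-of-ratios scaling 1 was called higher, and the median was 0.00. That gene was Bop1, which processes the ribosomal RNA of the large subunit, and it was at 3.90, 2.44 and 3.52 FPKM in the 3 WT libraries, compared with 8.38, 9.91 and 7.71 FPKM in the 3 of Cfp1-cKO. All Cfp1-cKO values of Bop1 lay above all WT values (log2 fold change 1.18, standard error 0.18, limma adjusted p = 0.0064, and 0.81 after scaling). Rrp12, Mrto4 and Ubtf, the last an RNA polymerase I factor, were called higher in FPKM, at 1.23, 0.75 and 0.61, and not after median-of-ratios scaling. These 3 calls were also lost when WT replicate 1 or Cfp1-cKO replicate 2 was left out. That of Rrp12 was lost without Cfp1-cKO replicate 1, and those of Mrto4 and Ubtf without Cfp1-cKO replicate 3 (limma adjusted p = 0.0501 to 0.110 for all these losses). Without 1 of these libraries 5.34% to 16.8% of all tested genes were called, in place of 22.8%.

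Other mRNAs known for a TOP motif were read in the same way. Of 15 tested genes for elongation factors and other TOP mRNAs, 1 was called higher and none lower, beside 21.1% and 1.68% of all tested genes. Their median log2 fold change was 0.14, beside 0.35 over all tested genes. The called gene was Nap1l1, a histone chaperone, at 15.004, 15.5 and 15.7 FPKM in the WT libraries against 24.1, 29.2 and 23.4 FPKM in the Cfp1-cKO libraries (0.69, limma adjusted p = 0.0178). Its call was lost without WT replicate 1 (0.67, limma adjusted p = 0.0686) and without Cfp1-cKO replicate 2 (0.59, limma adjusted p = 0.0817). In those 2 fits 6.17% and 5.34% of all tested genes were called, in place of 22.8%. The call of Nap1l1 was also lost after median-of-ratios scaling (0.27, limma adjusted p = 0.30) and relative to the ribosomal protein total (0.75, limma adjusted p = 0.109). Tpt1, one of the best known TOP mRNAs, was at 607, 622 and 552 FPKM in the 3 WT libraries, compared with 498, 474 and 473 FPKM in the 3 of Cfp1-cKO, below all WT values and not called (-0.30, limma adjusted p = 0.134). Vim (0.73, limma adjusted p = 0.0803) and Pabpc1 (0.42, limma adjusted p = 0.119) were not called. The ribosomal proteins that the naming rule leaves out, Fau (0.05) and Rack1 (-0.05), were not called either.

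Of 18 tested regulators of TOP mRNAs and of ribosome supply, 3 were called higher and none lower, with a median of 0.14, against 21.1% of all tested genes. Larp1, which binds TOP mRNAs, was at 4.14, 4.08 and 5.72 FPKM in the WT libraries against 6.82, 9.12 and 9.31 FPKM in the Cfp1-cKO libraries. Its genotypes did not overlap (0.74, standard error 0.18, limma adjusted p = 0.0273). Rps6kb2, a kinase of ribosomal protein S6, and Tsc2, which restrains mTOR, were also called (0.73 and 0.58, limma adjusted p = 0.0324 and 0.0498), and Rps6kb1 was not (0.47, limma adjusted p = 0.0455, below the fold threshold). The call of Larp1 was lost without WT replicate 1 or 2 or Cfp1-cKO replicate 2 or 3. That of Rps6kb2 was lost without WT replicate 1 or any Cfp1-cKO library. That of Tsc2 was lost without any 1 library other than WT replicate 3 (limma adjusted p = 0.0541 to 0.155 for the 3 genes). Without any 1 library other than WT replicate 3, 5.34% to 16.8% of all tested genes were called, in place of 22.8%. After median-of-ratios scaling none of the 18 regulators was called in limma. Of them 6 had an unadjusted p below 0.05, beside 2720 of the 11017 tested genes. Of 12 tested ribosomal protein chaperones and importers 2 were called higher, Grwd1 (0.80), which escorts Rpl3, and Bccip (0.57), which escorts Rpl23, while the importers Ipo5 (0.48, limma adjusted p = 0.0380, below the fold threshold) and Heatr3 (0.66, limma adjusted p = 0.0933) were not. Neither Grwd1 nor Bccip was called after median-of-ratios scaling (limma adjusted p = 0.0774 and 0.619). Both calls were lost when WT replicate 1 or Cfp1-cKO replicate 2 was left out, and that of Bccip without Cfp1-cKO replicate 1 (limma adjusted p = 0.0600 to 0.108). Without WT replicate 1 and without Cfp1-cKO replicate 2, 6.17% and 5.34% of all tested genes were called, in place of 22.8%. The log2 fold changes there were 0.75 and 0.74 for Grwd1 and 0.60 and 0.54 for Bccip.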

How the data were processed

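RNA-seq of 3 WT and 3 Cfp1-cKO hearts was analysed from the FPKM table that the authors deposited. The authors aligned the reads, counted fragments per gene and scaled them to FPKM before deposit. Tools listed in the submitters' processing notes, in no stated order, are CASAVA, TopHat2, DESeq2, Bowtie2 2.2.3, HTSeq 0.6.0 and HISAT2 2.1.0, with the build GRCm38, and the paper's methods point to a chicken genome. The FPKM fitted mouse genes of GENCODE release M21, which matched 26801 of 26881 genes. A second deposited table held the same values with annotation. The strand setting of the counting is not given in the sources used here.

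Cfp1-cKO was compared with WT in R 4.3.3 with limma 3.58.1, with a variance trend. The fit used log2(FPKM + 1) of the 11017 genes whose mean reached 1 FPKM, and Benjamini-Hochberg adjustment covered all of them. A call needed an adjusted p under 0.05 and a log2 fold change of more than 0.5 either way. Fold changes on this scale understate those of low genes. Ratios of paralogs and summed levels were compared with two-sided exact permutation tests in scipy 1.17.1 under Python 3.11.15. Whole fragments in all libraries, within a tolerance of 0.02, were recovered for 89.2% of genes with the GENCODE lengths, and voom of limma on 9220 of these genes called 2289.

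The genes named were Rpl3, Rpl3l, the paralogs, the P-stalk proteins, the members called and the 4 with the largest change in each direction, the 3 highest and 3 lowest tested members, up to 4 genes of smallest p of each related list, Eef1a1, Eef1a2 and Cxxc1. Marker lists covered cardiomyocytes, skeletal muscle, lung epithelium, endothelium, fibroblasts, macrophages, lymphocytes, erythroid cells, dividing cells and mitochondrial transcripts. Members and lists were chosen with earlier results of these data known. Alternatives covered the pseudocount, the filter, the scaling, the variance trend, the fold threshold, voom, the replicate number as a block and each library left out.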

Additional observations from a re-analysis of the deposited data

How the results depend on the processing

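The count of called members was 1 in FPKM, 0 with no filter on low values and 0 relative to the ribosomal protein total. It was 0 with voom on recovered fragments, in which Rpl36 and Rpl3 were not tested since their values were not whole fragments. With 1 library left out it was 0 to 3, and it was 1 under the other alternatives. Over all tested genes the share called was 22.8% in FPKM, 5.99% with no filter and 5.93% relative to the ribosomal protein total. It was 24.8% with voom, 5.34% to 25.3% with 1 library left out and 6.99% after median-of-ratios scaling. The ratio of Rpl3l to Rpl3 kept its sign throughout, from -0.41 to -0.07 with 1 library left out. Rpl3l ranged from -0.17 to 0.050 and the summed level from -0.23 to 0.10 with 1 library left out, and both changed sign. Among the genes named, median-of-ratios scaling turned the sign of Rpl3 (-0.27), Rpl13a (-0.13), Rpl21 (-0.10), Rpl22 (-0.028), Rplp0 (-0.11), Rplp2 (-0.16), Rps27l (-0.054), Fau (-0.39) and Pabpc1 (-0.0045), none of them called. Members not named turned as well, since 30 of the 81 tested members lay above 0 in FPKM and 1 after this scaling. Of the named genes, setting libraries to the ribosomal protein total turned Rack1 (0.01), Rps24 (0.043) and Rps3a1 (0.029). Leaving out mitochondrial and haemoglobin genes turned Fau (-0.0093) among them. With 1 library left out, signs of named genes also changed for Fau (-0.18 to 0.30), Rack1 (-0.20 to 0.11), Rplp1 (-0.24 to 0.025), Rps24 (-0.18 to 0.12) and Rps3a1 (-0.22 to 0.13).

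Replicate numbers were shared by the genotypes, but the labels do not say that a number marks a litter or a day. Deviations of same-numbered libraries from their genotype means had correlations of 0.11, 0.04 and 0.10 across genes, and each library correlated best with its own number, a hint from the data and not from the design. With a replicate block 1749 genes were called in place of 2510 and 1 member, Rpl36 (limma adjusted p = 0.0452). Each number holds 1 library of each genotype, so a block can change the p-values but cannot move the fold changes. Rpl3l was therefore still at -0.08 and Rpl3 at 0.17, the ratio at -0.25 and the summed level at -0.06. Of the named genes called in FPKM, Rrp12, Mrto4 and Rps6kb2 were not called with the block. With 3 libraries a genotype, the 95% interval of a member reached a median of 0.48 either side, so smaller differences were mostly not detectable.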

Other observations

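Rows named as pseudogenes of ribosomal proteins, which the rule left out, numbered 100 and summed to 101, 114 and 71.7 FPKM in the 3 WT libraries, compared with 109, 115 and 101 FPKM in the 3 of Cfp1-cKO. WT replicate 2 was again above WT replicate 3, and the genotypes overlapped. The highest was Rps13-ps1, at 19.6, 23.2 and 16.8 FPKM in the WT libraries against 20.1, 21.7 and 18.2 FPKM in the Cfp1-cKO libraries. Rpl14-ps1 was at 13.2, 19.3 and 9.78 FPKM in the 3 WT libraries, compared with 18.1, 16.4 and 12.2 FPKM in the 3 of Cfp1-cKO.

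Of the remaining marker lists, summed levels of 7 endothelial markers were between 130 and 171 FPKM across WT samples and between 171 and 245 FPKM across Cfp1-cKO samples, with 2 called higher in FPKM, beside 21.1% of all tested genes, and 0 after median-of-ratios scaling, where 0 had an unadjusted p below 0.05 in limma. Those of 7 fibroblast markers were 266 to 366 and 441 to 714 FPKM, with none called in limma. Of these 7, 5 had an unadjusted p below 0.05 in FPKM, beside 4826 of the 11017 tested genes, and 0 after median-of-ratios scaling. Sums of 8 B and T cell markers were between 0.22 and 0.79 FPKM across WT samples and between 2.16 and 3.13 FPKM across Cfp1-cKO samples, and none was tested. Sums of 7 proliferation markers were between 1.03 and 3.39 FPKM across WT samples and between 3.39 and 38.9 FPKM across Cfp1-cKO samples, with the high value in Cfp1-cKO replicate 2. Sums of 9 mitochondrially encoded genes were between 260790 and 281420 FPKM across WT samples and between 210600 and 247160 FPKM across Cfp1-cKO samples. None of the 9 was called in limma in FPKM, and 1 had an unadjusted p below 0.05. After median-of-ratios scaling 1 was called lower, and 9 of 9 had an unadjusted p below 0.05, beside 2720 of the 11017 tested genes.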
